A study of Homo sapiens with 4 samples.

Results

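The 78 genes described here carry the names of mitochondrial ribosomal proteins and were taken as the protein-coding rows of the deposited table whose GENCODE 29 symbol is MRPL or MRPS followed by a number and an optional final letter. They were 78 of 58735 rows, and all 78 passed the filter on low counts. The rule reads gene names and no measured value, but it was set with earlier results of these data known. RNA-seq was done on A549, an established human lung adenocarcinoma line, in 4 libraries. The 2 UHRF1 KO libraries came from cells that received lentiCRISPRv2-hygro lentivirus with a guide against UHRF1, and the 2 control libraries from cells that received the same vector with a non-targeting guide. All were selected with hygromycin, so Cas9 and the hygromycin resistance of the vector were shared by both groups. UHRF1 is a chromatin protein that reads newly copied, hemimethylated DNA after replication and brings in DNMT1, the enzyme that copies CpG methylation. The labels state neither whether a culture was a pool or a clone nor when after infection it was harvested. They also do not say that replicate libraries derive from independent cultures; p-values therefore reflect library-to-library spread, which may be technical.

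The mitochondrial ribosome is built from a large and a small subunit and translates only the messenger RNAs of the mitochondrial genome, which code for core subunits of the respiratory chain and the ATP synthase. Its RNAs are transcribed inside the organelle, whereas all its proteins are encoded in the nucleus, made in the cytosol and imported. Many of these proteins have a counterpart in the bacterial ribosome, and others are found only in mitochondria; loss of single members is a known cause of human diseases of oxidative phosphorylation.

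UHRF1 had 39.1 and 40.2 CPM in UHRF1 KO cells, against 97.6 and 98.9 CPM in control cells (log2 fold change -1.31, SE 0.0548, edgeR adjusted p = 3.92e-20), so its RNA was lower and not absent in the KO libraries. Levels are CPM (counts scaled to library size) after TMM scaling, and log2 fold changes are UHRF1 KO over control. Total counts were 20020366 and 23977168 in UHRF1 KO libraries and 18604598 and 19222886 in control libraries. All 5 epithelial markers were detected, and CDKN2A, deleted in A549, had 0 counts in all 4 libraries. The epithelial markers summed to 2912 and 2881 CPM in UHRF1 KO cells, against 3823 and 3633 CPM in control cells, with 4 called lower and EPCAM higher. The 10 markers of other cell types summed to 33.9 and 35.0 CPM in UHRF1 KO cells, against 0.953 and 0.862 CPM in control cells. Most of it was PECAM1, at a mean of 29.9 CPM in UHRF1 KO cells and 0.250 CPM in control cells. The 3 of them tested, PECAM1, PDGFRB and ALB, were all called higher, with log2 fold changes of 6.88, 3.56 and 1.61. PTPRC had 10 and 20 counts in UHRF1 KO cells and 0 in both control libraries. HBB had 0 in both UHRF1 KO libraries and 1 and 2 counts in control cells, and CD3E was 0 in every library. The part of these markers in the results below was not tested.

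Most mitochondrial ribosomal protein genes had less RNA in UHRF1 KO cells. Of the 78 genes, 67 fell, 0 rose and 11 did not pass edgeR's quasi-likelihood test at an adjusted p of 0.05; at an unadjusted p under 0.05, 67 were lower and 1 higher, and DESeq2 and limma-voom also called 0 higher. Over all 17030 genes tested, 30.1% were called lower and 32% higher, and among the protein-coding genes tested 34.6% were called lower. The median log2 fold change of the 78 genes was -0.46, with a range of -1.09 to 0.54, against a median of 0.02 over all genes tested. Both UHRF1 KO libraries lay below both control libraries for 68 genes and above them for 2, and the groups overlapped for 8; both KO libraries lay below both control libraries for 38.4% of all genes tested. In these bulk RNA libraries, fewer cells with high levels and less RNA per cell cannot be told apart.

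The falls were mostly small and close to each other in size. Among the 67 called genes the fold ran from 1.14 in MRPL16 to 2.13 in MRPS34, with a median of 1.40. 21 genes were at least 1.5-fold lower, against 8.34% of all genes tested. 41 were between 1.2-fold and 1.5-fold lower and 5 under 1.2-fold. The replicate spread was smaller than most of these differences: the SD was 3.59% of the mean in UHRF1 KO cells and 3.25% in control cells for the median member. When trends with GC content and length were removed and the libraries recentred, the median of all genes moved to -0.28, with 8739 genes lower and 3296 higher in place of 5118 lower and 5445 higher. The member median was then -0.86, with 66 members at least 1.5-fold lower, and it lay 0.58 below that of all genes, against 0.49 below in the TMM-scaled data.

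**Figure D1:**
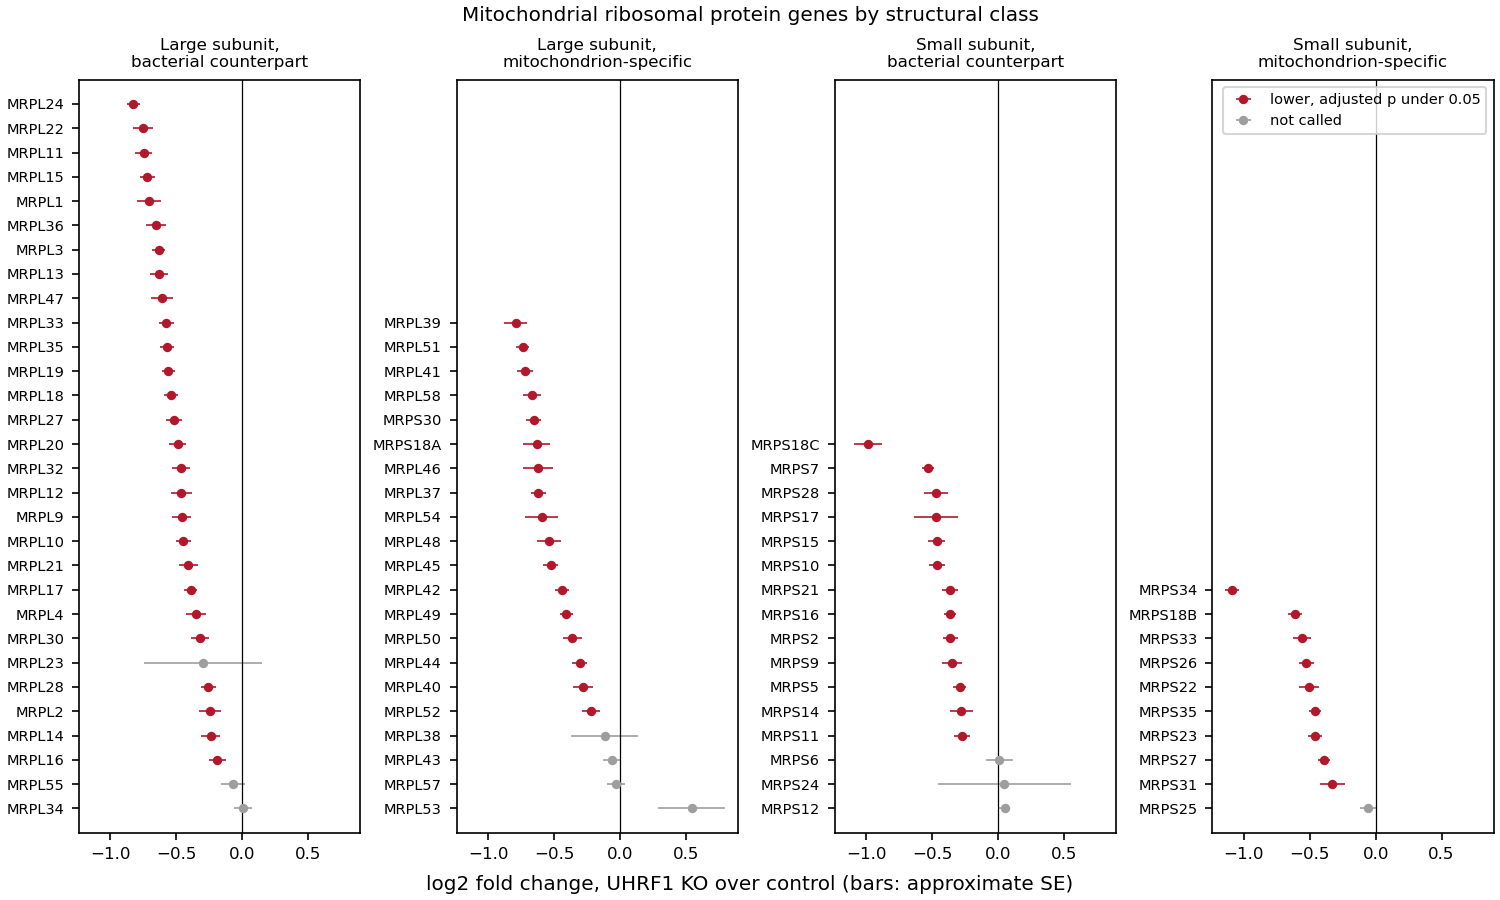
Log2 fold change of UHRF1 KO over control (x axis, bars are the approximate SE) for 77 mitoribosomal protein genes in 4 structural classes, with MRPS36 left out because it is no longer counted as a ribosomal protein. Called genes are red and those not called grey; nearly all points lie left of 0, and MRPL53 alone lies far to the right, with a wide bar.

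As a share of all counts, the genes together took 0.348% and 0.345% in UHRF1 KO libraries (95% Wilson intervals 0.346% to 0.351% and 0.343% to 0.348%), against 0.447% and 0.437% in control libraries (0.444% to 0.450% and 0.434% to 0.440%). These intervals cover counting error only. The summed level was 3361 and 3331 CPM in UHRF1 KO cells, against 4665 and 4528 CPM in control cells, so the UHRF1 KO mean was 72.8% of the control mean. For the proteins of the large subunit the sum was 1958 and 1948 CPM in UHRF1 KO cells, against 2783 and 2718 CPM in control cells (71.0% of the control mean). For those of the small subunit it was 1382 and 1365 CPM in UHRF1 KO cells, against 1851 and 1784 CPM in control cells (75.6%). The 2 libraries of each group lay close together in every sum and the groups did not overlap.

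MRPS34 fell the most. It encodes mS34, a protein of the small subunit found only in mitochondrial ribosomes, and it had 50.9 and 50.8 CPM in UHRF1 KO cells, against 113 and 104 CPM in control cells (ENSG00000074071, chr16:1771890-1773155 in GRCh38). Its mean was 50.8 ± 0.0461 CPM in UHRF1 KO cells and 108 ± 6.49 CPM in control cells (SD, n = 2 each), with log2 fold change -1.09, SE 0.0539, edgeR adjusted p = 3.60e-18. The UHRF1 KO libraries were nearly equal to each other. It was the only member that fell at least 2-fold.

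MRPS18C, which encodes the small subunit protein bS18m and is 1 of 3 human MRPS18 genes, came next (ENSG00000163319, chr4:83455932-83469735). It had 9.40 and 10.2 CPM in UHRF1 KO cells, against 19.3 and 19.6 CPM in control cells (log2 fold change -0.99, SE 0.106, edgeR adjusted p = 9.44e-10). The 3 genes encode proteins that sit at different places: MRPS18A belongs to the large subunit (mL66) and MRPS18B to the small one as mS40. MRPS18A had 13.5 and 11.7 CPM in UHRF1 KO cells, against 18.96 and 19.998 CPM in control cells (log2 fold change -0.63, SE 0.103, edgeR adjusted p = 2.96e-06). MRPS18B had 52.3 and 50.5 CPM in UHRF1 KO cells, against 79.9 and 77.1 CPM in control cells (log2 fold change -0.61, SE 0.0552, edgeR adjusted p = 1.80e-11). All 3 fell and none had overlapping groups. On the opposite strand, MRPS18C shares 40.2% of its exon length with ABRAXAS1, and MRPS18A shares 47.0% with RSPH9. Reads in those bases cannot be told apart without strand. Set per length, as TPM (counts per exon length, scaled to an equal total in each library), MRPS18C made up 4.81% and 5.51% of the summed level of the 3 genes in UHRF1 KO cells, against 6.50% and 6.67% in control cells. MRPS18B made up 68.9% and 70.5% of that level in UHRF1 KO cells, against 69.3% and 67.6% in control cells. The share of MRPS18C was thus lower in both UHRF1 KO libraries, whereas that of MRPS18B overlapped between the groups. No test was made on these shares. They rest on exon lengths of 4866 bases for MRPS18C, 1284 for MRPS18A and 1888 for MRPS18B. The coding lengths are 426, 791 and 774 bases, so the size of each share depends on the length used.

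Among large subunit proteins with a bacterial counterpart, 27 of 30 genes fell, 9 of them at least 1.5-fold, with a median log2 fold change of -0.48. For this class and those below, 30.1% of all genes tested were called lower and 8.34% called at least 1.5-fold lower. MRPL24 (ENSG00000143314, chr1:156737303-156741590) encodes uL24m, whose bacterial counterpart lies at the rim of the tunnel through which the new protein leaves. It had 66.9 and 66.6 CPM in UHRF1 KO cells, against 124 and 113 CPM in control cells (log2 fold change -0.83, SE 0.0513, edgeR adjusted p = 1.54e-15). MRPL22 encodes uL22m, which in bacteria lines that tunnel, and had 23.9 and 27.4 CPM in UHRF1 KO cells, against 43.3 and 43.6 CPM in control cells (log2 fold change -0.75, SE 0.0752, edgeR adjusted p = 1.77e-10). MRPL11 encodes uL11m, part of the stalk base where translation factors bind. It had 33.4 and 33.1 CPM in UHRF1 KO cells, against 58.2 and 53.5 CPM in control cells (log2 fold change -0.75, SE 0.0660, edgeR adjusted p = 1.09e-11). MRPL15, for uL15m, had 48.6 and 46.3 CPM in UHRF1 KO cells, against 78.9 and 77.1 CPM in control cells (log2 fold change -0.72, SE 0.0561, edgeR adjusted p = 5.54e-13). In each of these 4 genes both UHRF1 KO libraries lay well below both control libraries. MRPL3, whose bacterial counterpart reaches towards the peptidyl transferase centre, had 77.7 and 75.5 CPM in UHRF1 KO cells, against 123 and 114 CPM in control cells (log2 fold change -0.63, SE 0.0494, edgeR adjusted p = 5.79e-13). At the other end, MRPL16 was the called member with the smallest change, with 40.7 and 43.9 CPM in UHRF1 KO cells, against 49.4 and 47.2 CPM in control cells (log2 fold change -0.19, SE 0.0648, edgeR adjusted p = 0.0123). This call was lost without the first UHRF1 KO library (edgeR adjusted p = 0.153), with DESeq2 (adjusted p = 0.0862) and with a minimum of 1.2-fold (edgeR adjusted p = 0.864).

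Among large subunit proteins found only in mitochondria, 17 of 21 genes fell, 9 of them at least 1.5-fold, with a median of -0.53. MRPL39 had 16.3 and 14.9 CPM in UHRF1 KO cells, against 26.9 and 27.1 CPM in control cells (log2 fold change -0.79, SE 0.0890, edgeR adjusted p = 2.54e-09). MRPL51 (ENSG00000111639, chr12:6491886-6493841) had 65.8 and 63.5 CPM in UHRF1 KO cells, against 108 and 107 CPM in control cells (log2 fold change -0.74, SE 0.0499, edgeR adjusted p = 1.45e-14). MRPL41 had 39.3 and 38.9 CPM in UHRF1 KO cells, against 65.1 and 63.4 CPM in control cells (log2 fold change -0.72, SE 0.0602, edgeR adjusted p = 3.21e-12). All 3 were lower in both UHRF1 KO libraries by more than the replicates differed. MRPS30, which keeps a small subunit symbol but encodes the large subunit protein mL65, changed by -0.66 (edgeR adjusted p = 7.23e-12) on the log2 scale. MRPL58, a ribosome-bound peptidyl-tRNA hydrolase that frees stalled chains, changed by -0.67 (edgeR adjusted p = 1.62e-10). MRPL45, which ties the ribosome to the inner membrane in mammals, changed by -0.53 (edgeR adjusted p = 5.45e-10), and MRPL44, which resembles ribonuclease III, by -0.31 (edgeR adjusted p = 3.24e-05).

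In the small subunit 13 of 16 genes with a bacterial counterpart fell, 1 of them (MRPS18C) at least 1.5-fold, with a median of -0.36. Over all genes tested, 8.34% were called at least 1.5-fold lower. With a minimum of 1.2-fold, 8 of the 16 were called lower, against 2800 of all 17030 genes tested. MRPS7 had 88.4 and 89.0 CPM in UHRF1 KO cells, against 126 and 130.4 CPM in control cells (log2 fold change -0.53, SE 0.0463, edgeR adjusted p = 7.86e-12), and MRPS16 had 134 and 131 CPM in UHRF1 KO cells, against 177 and 164 CPM in control cells (log2 fold change -0.36, SE 0.0446, edgeR adjusted p = 1.50e-08). Of the 10 small subunit genes found only in mitochondria, 9 fell, 2 of them (MRPS34 and MRPS18B) at least 1.5-fold, with a median of -0.49. MRPS35 had 119 and 115 CPM in UHRF1 KO cells, against 163 and 158 CPM in control cells (log2 fold change -0.46, SE 0.0437, edgeR adjusted p = 5.46e-11). MRPS27, which has pentatricopeptide repeats, changed by -0.39 (edgeR adjusted p = 2.15e-09). By subunit, 44 of 51 large subunit genes fell, with a median of -0.49, and 22 of 26 small subunit genes fell, with a median of -0.42; the difference between the subunits was not tested. MRPS36, now placed in the oxoglutarate dehydrogenase complex and not in the ribosome, had 20.6 and 17.7 CPM in UHRF1 KO cells, against 30.2 and 26.5 CPM in control cells (log2 fold change -0.57, SE 0.0911, edgeR adjusted p = 2.04e-06).

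**Figure D2:**
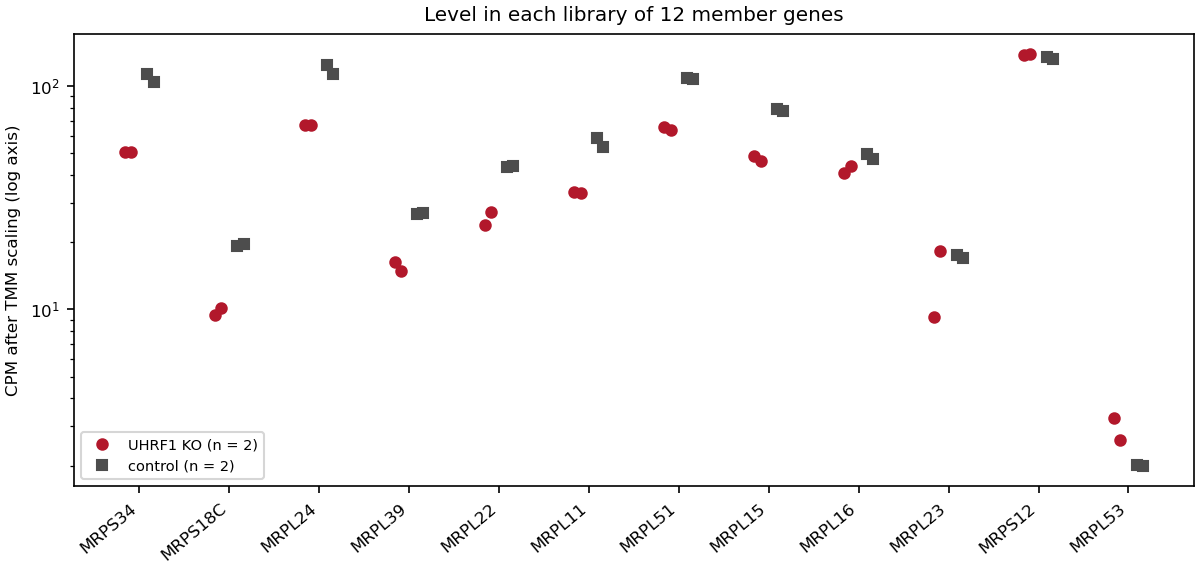
Level of 12 members in each library (y axis, CPM after TMM scaling, log axis), with the 2 UHRF1 KO libraries as red circles left of the 2 control libraries as grey squares. In the 8 genes on the left the groups are far apart, MRPL16 is closer, the 2 UHRF1 KO libraries of MRPL23 are split, MRPS12 is level and MRPL53 is slightly higher in UHRF1 KO cells at a very low level.

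The 11 genes that were not called are of 3 kinds. MRPL23 (ENSG00000214026, chr11:1947278-1984522), for the tunnel exit protein uL23m, had 9.21 and 18.3 CPM in UHRF1 KO cells, against 17.6 and 17.0 CPM in control cells, or 191 and 456 counts in UHRF1 KO cells and 313 and 315 in control cells. Its first UHRF1 KO library was far below the controls and the second slightly above them (log2 fold change -0.30, SE 0.449, edgeR adjusted p = 0.633). With the second UHRF1 KO library left out its log2 fold change was -0.91 (edgeR adjusted p = 4.35e-09), and with the first left out it was 0.08. The neighbouring imprinted gene H19 had 533 and 626 counts in UHRF1 KO cells and 3 and 5 in control cells, and both UHRF1 KO libraries lay far above the controls there. The antisense gene MRPL23-AS1 shares 85 exon bases with MRPL23 and had at most 4 counts in a library.

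Another kind had few counts. MRPS24 had 9 and 17 counts in UHRF1 KO cells and 7 and 13 in control cells, the only member with under 20 counts in a library (log2 fold change 0.05, SE 0.504, edgeR adjusted p = 0.943). MRPL38 had 53 and 53 counts in UHRF1 KO cells and 39 and 53 in control cells (log2 fold change -0.12, SE 0.256, edgeR adjusted p = 0.717). MRPL53 had 68 and 65 counts in UHRF1 KO cells and 36 and 37 in control cells (log2 fold change 0.54, SE 0.254, edgeR adjusted p = 0.0626). MRPL53 was higher in both UHRF1 KO libraries, but it shares 45.2% of its exon length with CCDC142 on the same strand, which itself had 243 and 292 counts in UHRF1 KO cells and 191 and 174 in control cells. MRPL38 shares 37.5% with the readthrough gene AC087289.3, and MRPS24 shares 23.2% with URGCP-MRPS24, so their counts are uncertain. The SEs of these 3 genes, 0.254 to 0.504, are wide beside the member median of -0.46.

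The other kind had more counts and was close to level. MRPS12 encodes uS12m of the decoding centre, whose bacterial counterpart carries the classic streptomycin resistance mutations, and had 137 and 138 CPM in UHRF1 KO cells, against 135 and 132 CPM in control cells (log2 fold change 0.05, SE 0.0433, edgeR adjusted p = 0.317). Both of its UHRF1 KO libraries lay just above both control libraries, by less than the test could call. The log2 fold changes of the others were -0.07 for MRPL55 (edgeR adjusted p = 0.520), -0.06 for MRPL43 (edgeR adjusted p = 0.406) and -0.06 for MRPS25 (edgeR adjusted p = 0.440). MRPL57 had -0.03 (edgeR adjusted p = 0.715), MRPL34 0.01 (edgeR adjusted p = 0.952) and MRPS6 0.01 (edgeR adjusted p = 0.947). In all 6 of these genes the groups overlapped except in MRPL43, whose UHRF1 KO libraries had 42.9 and 42.6 CPM, against 44.3 and 45.0 CPM in control cells. With GC and length trends removed, 5 of these 7 genes were instead called lower: MRPL55 at -0.42, MRPL34 at -0.27, MRPS12 at -0.26, MRPL43 at -0.25 and MRPL57 at -0.15. With recentring as well, MRPS25 was also called lower, at -0.32. On the opposite strand, MRPL43 shares 32.75% of its exon length with SEMA4G and MRPS25 22.2% with NR2C2. MRPS12 shares 16.3% with SARS2 and MRPL34 13.2% with ABHD8, also on the opposite strand. MRPS6 shares 6.35% with SLC5A3 on the same strand. Reads in those bases may not be told apart, whereas MRPL55 and MRPL57 share no exon bases with another gene.

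TPM was not TMM-scaled and is used here for the order of members within a group. By this level per length, the highest control members were MRPS34 with a mean of 301 TPM, MRPS35 with 248 TPM and MRPS26 with 219.9 TPM. In UHRF1 KO cells the order was MRPS12 with 221 TPM, MRPS35 with 203.1 TPM and MRPS26 with 172 TPM, and MRPS34 stood at 159 TPM. The lowest were MRPS24, with 0.736 TPM in UHRF1 KO cells and 0.641 TPM in control cells, and MRPL38, with 2.20 TPM in UHRF1 KO cells and 2.11 TPM in control cells. MRPL53 was next in control cells (7.54 TPM in UHRF1 KO cells, 4.56 TPM in control cells) and MRPL46 in UHRF1 KO cells (6.23 TPM, against 8.47 TPM in control cells). MRPS24, MRPL38, MRPL53 and MRPL46 each share exon bases with another gene on the same strand, so their levels are uncertain. The median member had 47.0 and 47.5 TPM in UHRF1 KO libraries, against 60.7 and 58.3 TPM in control libraries. With coding length in place of exon length, 5 of the 10 highest members were shared, so the order depends on the length used. Across the 78 genes the log2 fold change had Pearson r = -0.368 and Spearman rho = -0.321 with the control TPM, which shares the control libraries with it, r = 0.147 and rho = 0.214 with GC content and r = 0.0286 and rho = 0.20 with exon length; these are descriptions over genes, with no test.

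Reads of neighbouring or copied genes could touch some of these values. 16 members share exon bases with another gene on the same strand; 12 of them fell, with a median of -0.40. Of the other 62 members, 55 fell, with a median of -0.49. The sources used here do not state whether strand was used in the counting, so for the 41 members that share exon bases with a gene on either strand the reads may not be told apart; 32 of these fell. MRPL12, for the stalk protein bL12m, shares 68.2% of its exon length with the readthrough gene AC139530.2, which had 0 counts in every library, and fell by 0.46 on the log2 scale (edgeR adjusted p = 5.91e-06). 75 MRPL or MRPS pseudogenes are annotated, of which 53 had 0 counts in all libraries. They held 543 counts over both UHRF1 KO libraries and 466 over both control libraries, and of the 3 tested 0 were called.

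Since 67 of the 78 members fell, their promoters were compared. The 250 bases upstream of the RefSeq start (GRCh38.p14), 5′ to 3′ on the gene's strand, are shown for 7 members. First come the 4 of the 8 most lowered members that hold a searched core there. Of the others, MRPL24, MRPL39 and MRPL11 hold none and MRPL15 had no RefSeq window. MRPL36 and MRPL47 were added because their GENCODE gene starts lie beside a complex I gene, and MRPS12 as a member not called. The MRPL36 window lies inside its GENCODE gene (chr5:1798386-1801366), so it is not the region between that gene and NDUFS6. Capitals mark exact matches, on either strand, to the ETS core CCGGAAG bound by GABP, the NRF1 core CGCATGCG or the YY1 core AAGATGGCG; each of these factors is known to bind promoters of nuclear genes for mitochondrial proteins. The windows are MRPS34 chr16:1773135-1773384 (- strand), MRPS18C chr4:83455808-83456057 (+ strand), MRPL22 chr5:154940823-154941072 (+ strand), MRPL51 chr12:6493263-6493512 (- strand), MRPL36 chr5:1799838-1800087 (- strand), MRPL47 chr3:179604639-179604888 (- strand) and MRPS12 chr19:38930694-38930943 (+ strand).
MRPS34: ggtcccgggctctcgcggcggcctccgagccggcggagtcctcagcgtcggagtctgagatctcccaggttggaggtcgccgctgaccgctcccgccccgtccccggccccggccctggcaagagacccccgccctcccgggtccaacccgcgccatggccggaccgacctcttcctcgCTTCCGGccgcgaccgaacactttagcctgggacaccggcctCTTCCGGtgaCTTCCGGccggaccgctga
MRPS18C: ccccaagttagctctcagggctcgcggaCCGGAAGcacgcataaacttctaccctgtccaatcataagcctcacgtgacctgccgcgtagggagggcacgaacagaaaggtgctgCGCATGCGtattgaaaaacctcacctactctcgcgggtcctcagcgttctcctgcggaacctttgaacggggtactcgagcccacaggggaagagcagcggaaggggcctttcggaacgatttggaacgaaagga
MRPL22: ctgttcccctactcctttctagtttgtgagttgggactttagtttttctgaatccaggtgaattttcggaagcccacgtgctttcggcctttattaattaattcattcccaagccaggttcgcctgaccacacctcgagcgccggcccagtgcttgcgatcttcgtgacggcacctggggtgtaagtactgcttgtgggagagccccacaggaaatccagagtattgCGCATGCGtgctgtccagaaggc
MRPL51: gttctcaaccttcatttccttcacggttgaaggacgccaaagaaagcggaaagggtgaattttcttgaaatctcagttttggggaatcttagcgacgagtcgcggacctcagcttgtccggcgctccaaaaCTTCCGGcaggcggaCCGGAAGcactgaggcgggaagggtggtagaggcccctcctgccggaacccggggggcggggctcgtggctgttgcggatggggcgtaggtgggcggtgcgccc
MRPL36: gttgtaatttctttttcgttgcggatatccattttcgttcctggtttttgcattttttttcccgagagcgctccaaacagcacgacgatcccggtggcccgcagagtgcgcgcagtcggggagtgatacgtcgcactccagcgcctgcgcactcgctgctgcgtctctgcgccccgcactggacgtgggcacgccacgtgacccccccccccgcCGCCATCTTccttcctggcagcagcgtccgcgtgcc
MRPL47: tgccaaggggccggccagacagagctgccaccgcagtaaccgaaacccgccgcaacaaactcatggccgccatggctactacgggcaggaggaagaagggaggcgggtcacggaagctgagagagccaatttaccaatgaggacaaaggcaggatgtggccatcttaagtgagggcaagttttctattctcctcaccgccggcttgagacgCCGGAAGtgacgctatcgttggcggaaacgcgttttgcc
MRPS12: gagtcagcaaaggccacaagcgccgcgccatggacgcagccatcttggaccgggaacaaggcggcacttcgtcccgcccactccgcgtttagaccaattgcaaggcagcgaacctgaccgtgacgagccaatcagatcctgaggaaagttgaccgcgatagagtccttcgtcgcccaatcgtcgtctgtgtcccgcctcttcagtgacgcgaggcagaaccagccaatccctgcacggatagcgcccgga

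MRPS34 has 3 ETS cores in this window, MRPL51 has 2, MRPS18C has 1 ETS core and 1 NRF1 core, MRPL22 has 1 NRF1 core, MRPL47 has 1 ETS core and MRPL36 has 1 YY1 core; these letters are not in the MRPS12 window, but MRPS12 holds an ETS core when the 50 bases after the start are included. Of the 78 members, 69 matched the RefSeq table; MRPL10, MRPL13, MRPL15, MRPL2, MRPL21, MRPL23, MRPL35, MRPS28 and MRPS36 were not in it. In 300-base windows (250 before to 50 after the start), the ETS core was in 29 of 69 member promoters (42.0%), against 18.4% of the 10768 promoters of tested protein-coding genes and 10.7% of all 27305 promoters. The YY1 core was in 13 (18.8%), against 3.77% and 1.85%; in the 250 upstream bases alone it was in 3 (4.35%), against 1.00% and 0.641%. The NRF1 core was in 3 (4.35%), against 3.72% and 2.19%.

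Members with and without each core are set side by side here, with no test. The median log2 fold change was -0.49 for the 29 members with the ETS core and -0.46 for the 40 without; 25 of the members with it and 34 of those without it fell. It was -0.47 for the 13 members with the YY1 core and -0.46 for the 56 without. The 3 members with the NRF1 core (MRPL17, MRPL22 and MRPS18C) had -0.39, -0.75 and -0.99. Among members not called, MRPL38, MRPL43, MRPL53 and MRPS12 hold the ETS core, and MRPL38 and MRPS24 the YY1 core. MRPL34, MRPL55, MRPL57, MRPS25 and MRPS6, also not called, hold none of the 3 cores. A match is only a description of the letters, and binding was not measured. Member promoters held a median of 24 CpG dinucleotides (7 to 51), against 26 in promoters of tested protein-coding genes and 14 in all promoters. DNA methylation was not analysed here.

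**Figure D3:**
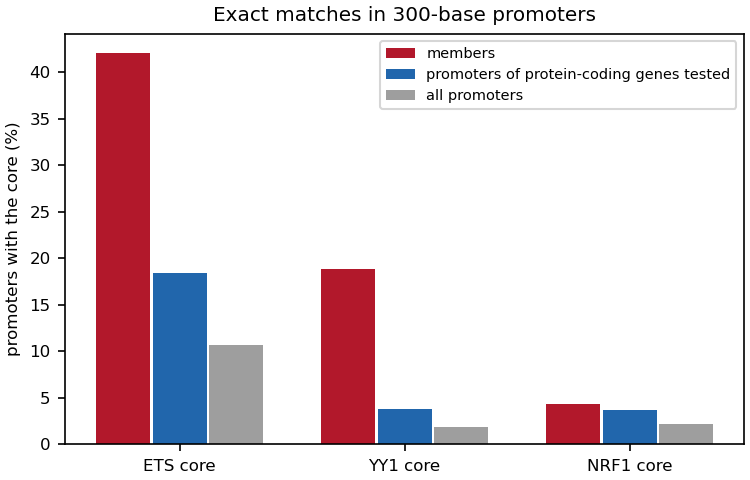
Percent of 300-base promoters (y axis) with an exact match to the ETS, YY1 or NRF1 core, for the 69 members with a RefSeq promoter (red), tested protein-coding genes (blue) and all promoters (grey). The ETS and YY1 bars of the members are higher than both others, and the NRF1 bars are all under 5%.

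Many members have an annotated start near that of a gene on the other strand. By GENCODE gene starts, 29 have a head-to-head neighbour whose start lies within 1000 bases, and in 1 case both genes are members. MRPL46 and MRPS11 start 34 bases apart and had log2 fold changes of -0.62 (edgeR adjusted p = 2.11e-05) and -0.27 (edgeR adjusted p = 2.38e-04). Their upstream windows of 250 bases share 181 bases. Of the other 27 neighbours 26 were tested, and 12 were lower, 8 higher and 6 not called, with a median of -0.08; over all genes tested 30.1% were lower and 32% higher. Among the protein-coding genes tested, 34.6% were called lower. Because most members fell, a count of pairs in which both fell does not show a link within pairs, and no link was tested. In 6 pairs the member fell and the neighbour was not called, and in 10 pairs both genes fell. Among them MRPL36 (-0.65) starts 34 bases from NDUFS6 and MRPL47 (-0.61) starts 36 bases from NDUFB5, both complex I subunits, with NDUFS6 -0.58 (edgeR adjusted p = 5.15e-10) and NDUFB5 -0.34 (edgeR adjusted p = 7.17e-05). MRPL51 (-0.74) faces NCAPD2 of the condensin complex, with NCAPD2 -0.61 (edgeR adjusted p = 3.67e-15), and MRPL18 (-0.54) faces the chaperonin subunit gene TCP1, with TCP1 -0.54 (edgeR adjusted p = 2.36e-14). NCAPD2 shares 486 exon bases with MRPL51 on the opposite strand, 31.3% of the MRPL51 exon length. Reads in those bases cannot be told apart without strand.

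In 7 pairs the member fell and its neighbour rose, with the share of neighbours that rose close to that of all genes tested. EME2, a subunit gene of a DNA structure-selective endonuclease, starts 52 bases from MRPS34, the member that fell most. EME2 averaged 17.6 ± 1.54 CPM in UHRF1 KO cells and 10.7 ± 0.494 CPM in control cells (SD, n = 2 each; log2 fold change 0.72, edgeR adjusted p = 8.47e-07). PNPLA7, a lysophospholipase gene, starts 665 bases from the GENCODE start of MRPL41 and had the largest rise of these neighbours. PNPLA7 averaged 8.31 ± 0.0860 CPM in UHRF1 KO cells and 1.86 ± 0.336 CPM in control cells (SD, n = 2 each; log2 fold change 2.15, edgeR adjusted p = 2.37e-11). The others were PELI3 beside MRPL11 (log2 fold change 0.66), TMEM63B beside MRPL14 (0.48), IGHMBP2 beside MRPL21 (0.20), APBA3 beside MRPL54 (0.90) and GGA3 beside MRPS7 (0.25). The edgeR adjusted p of these 5 ran from 1.20e-07 to 0.0440. PELI3 shares 119 exon bases with MRPL11 and GGA3 shares 213 with MRPS7, so reads in those bases cannot be told apart without strand. The RefSeq windows of MRPL11 (chr11:66438849-66439098) and MRPL41 (chr9:137551629-137551878) lie inside their GENCODE genes (chr11:66435075-66466738 and chr9:137551199-137552555). By RefSeq starts, the distances of these members from PELI3 and PNPLA7 are thus not those used here. With libraries recentred after GC and length correction, 3 neighbours were called higher in place of 8.

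MRPS12, the level member, faces SARS2, the mitochondrial seryl-tRNA synthetase gene, 348 bases away. SARS2 averaged 7.49 ± 0.119 CPM in UHRF1 KO cells and 4.78 ± 0.488 CPM in control cells (SD, n = 2 each; log2 fold change 0.65, edgeR adjusted p = 8.24e-04). The 2 genes share 349 exon bases on opposite strands. MRPL43 was not called, whereas its neighbour TWNK, the mitochondrial DNA helicase gene, fell: TWNK averaged 36.2 ± 0.301 CPM in UHRF1 KO cells and 60.1 ± 2.15 CPM in control cells (SD, n = 2 each; log2 fold change -0.73, edgeR adjusted p = 5.54e-12). MRPL57 was not called either, and SKA3, a kinetochore gene, fell beside it: SKA3 averaged 18.7 ± 0.498 CPM in UHRF1 KO cells and 31.4 ± 0.258 CPM in control cells (SD, n = 2 each; log2 fold change -0.75, edgeR adjusted p = 1.51e-09).

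**Figure D4:**
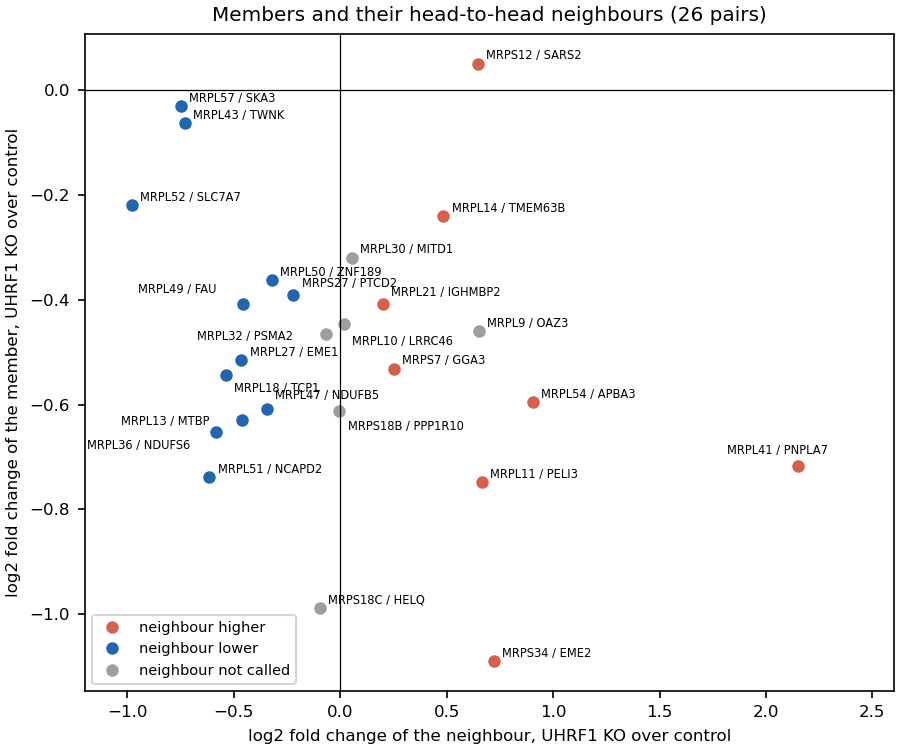
Log2 fold change of UHRF1 KO over control for 26 head-to-head pairs, the member on the y axis and its neighbour on the x axis, coloured by the call of the neighbour. Members lie below 0 apart from MRPS12 at 0.05, while neighbours spread from -0.98 (SLC7A7) to 2.15 (PNPLA7).

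The remaining mitoribosome subunits, which carry other symbols, moved in part with the members. 4 of 5 fell and 0 rose, with a median of -0.23. GADD45GIP1 (mL64) had 17.9 and 17.8 CPM in UHRF1 KO cells, against 34.7 and 35.2 CPM in control cells (log2 fold change -0.97, SE 0.0807, edgeR adjusted p = 2.61e-12). PTCD3 (mS39) changed by -0.23 (edgeR adjusted p = 7.06e-05), CHCHD1 (mS37) by -0.41 (edgeR adjusted p = 2.08e-04) and AURKAIP1 (mS38) by -0.14 (edgeR adjusted p = 0.0340). DAP3, the GTP-binding small subunit protein mS29, had 117 and 121 CPM in UHRF1 KO cells, against 119 and 117 CPM in control cells, and was not called (log2 fold change 0.01, SE 0.0452, edgeR adjusted p = 0.805).

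Counts of the ribosomal RNAs of the organelle were lower too. The libraries were mRNA-Seq libraries, and how well these counts follow the amounts of mitochondrial RNAs was not tested. MT-RNR1, the small subunit rRNA, had 1113 and 1209.6 CPM in UHRF1 KO cells, against 2202 and 2044 CPM in control cells (log2 fold change -0.87, SE 0.0382, edgeR adjusted p = 3.31e-16). MT-RNR2, the large subunit rRNA, had 12139 and 12310.1 CPM in UHRF1 KO cells, against 19744 and 18850.4 CPM in control cells (log2 fold change -0.66, SE 0.0295, edgeR adjusted p = 2.42e-19). The groups did not overlap in either rRNA. Of the 13 mitochondrially encoded mRNAs, which this ribosome translates, 9 fell and 2 rose, with a median of -0.13. MT-ND6 changed by -1.70 (edgeR adjusted p = 4.20e-28) and MT-ND5 by -1.43 (edgeR adjusted p = 4.54e-28), whereas MT-ND2 rose by 0.15 (edgeR adjusted p = 1.07e-04) and MT-ND4 by 0.09 (edgeR adjusted p = 0.00874).

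Factors that build the mitoribosome and work on it were mostly lower, against 30.1% called lower and 32% higher over all genes tested. Of 30 assembly and rRNA modification factors 20 fell and 1 rose, with a median of -0.24. With a minimum of 1.2-fold, 8 of the 30 were called lower, against 2800 of all 17030 genes tested. C1QBP, a matrix chaperone-like protein, changed by -0.63 (edgeR adjusted p = 9.04e-12) and FASTKD2, which binds the large subunit rRNA, by -0.55 (edgeR adjusted p = 2.82e-10); MTG1, a GTPase of large subunit assembly, rose by 0.46 (edgeR adjusted p = 0.00229). Of 18 translation factors and insertase genes 15 fell and 0 rose, with a median of -0.38. LRPPRC, which stabilises mitochondrial mRNAs, changed by -0.50 (edgeR adjusted p = 4.71e-14) and TACO1, a translational activator of cytochrome oxidase subunit I, by -0.76 (edgeR adjusted p = 7.06e-13). Of 17 mitochondrial aminoacyl-tRNA synthetases 12 fell and 1 rose, with a median of -0.37. MARS2, for the methionyl-tRNA synthetase, changed by -0.83 (edgeR adjusted p = 1.26e-09), and the 1 that rose was SARS2.

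Of 15 genes for replication and transcription of mitochondrial DNA, 8 fell and 0 rose, with a median of -0.25. With a minimum of 1.2-fold, 4 of these 15 were called lower, against 2800 of all 17030 genes tested. The single-strand binding protein gene SSBP1 changed by -0.58 (edgeR adjusted p = 1.17e-12) and TFAM, which packages mitochondrial DNA and starts its transcription, by -0.35 (edgeR adjusted p = 2.02e-07). Of 12 regulators of mitochondrial gene programmes 8 fell and 1 rose, with a median of -0.21. The 1.2-fold minimum left 3 of these 12 called lower. PPARGC1A, the coactivator PGC-1alpha, had 3.76 and 3.02 CPM in UHRF1 KO cells, against 13.6 and 15.1 CPM in control cells (log2 fold change -2.09, SE 0.149, edgeR adjusted p = 5.22e-14). NRF1 had 13.6 and 11.3 CPM in UHRF1 KO cells, against 18.2 and 20.9 CPM in control cells (log2 fold change -0.65, SE 0.108, edgeR adjusted p = 3.52e-06). GABPA, the ETS-domain subunit of GABP, had 29.4 and 28.7 CPM in UHRF1 KO cells, against 33.2 and 33.2 CPM in control cells (log2 fold change -0.19, SE 0.0741, edgeR adjusted p = 0.0229). MYC, a transcription factor that binds many ribosome and mitochondrial genes, had 187 and 186 CPM in UHRF1 KO cells, against 138 and 129 CPM in control cells (log2 fold change 0.48, SE 0.0430, edgeR adjusted p = 1.45e-11). MYC was thus higher in both UHRF1 KO libraries, while PPARGC1A, NRF1 and GABPA were lower in both.

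Import, cytosolic ribosomal protein and complex I genes were mostly lower as well. Of 27 tested import genes 21 fell and 1 rose, with a median of -0.32; TOMM22 of the outer membrane translocase changed by -0.71 (edgeR adjusted p = 2.04e-12) and TIMM10, a small chaperone of the intermembrane space, by -0.77 (edgeR adjusted p = 5.98e-12), while PAM16 of the import motor rose by 1.21 (edgeR adjusted p = 1.14e-05). Of 84 tested cytosolic ribosomal protein genes 78 fell and 1 rose, with a median of -0.50; RPS2 changed by -0.93 (edgeR adjusted p = 8.72e-23), RPL7 by -0.79 (edgeR adjusted p = 1.67e-20) and RPL36A by 0.32 (edgeR adjusted p = 0.0218). Of 38 complex I subunit genes 29 fell and 1 rose, with a median of -0.40; NDUFS3 changed by -0.72 (edgeR adjusted p = 3.21e-12), NDUFB10 by -0.55 (edgeR adjusted p = 1.33e-11) and NDUFA11 by 0.77 (edgeR adjusted p = 0.00121). On the same measures, 67 of 78 mitoribosomal genes fell, with a median of -0.46, so the fall was not particular to them. No difference between these groups was tested.

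**Figure D5:**
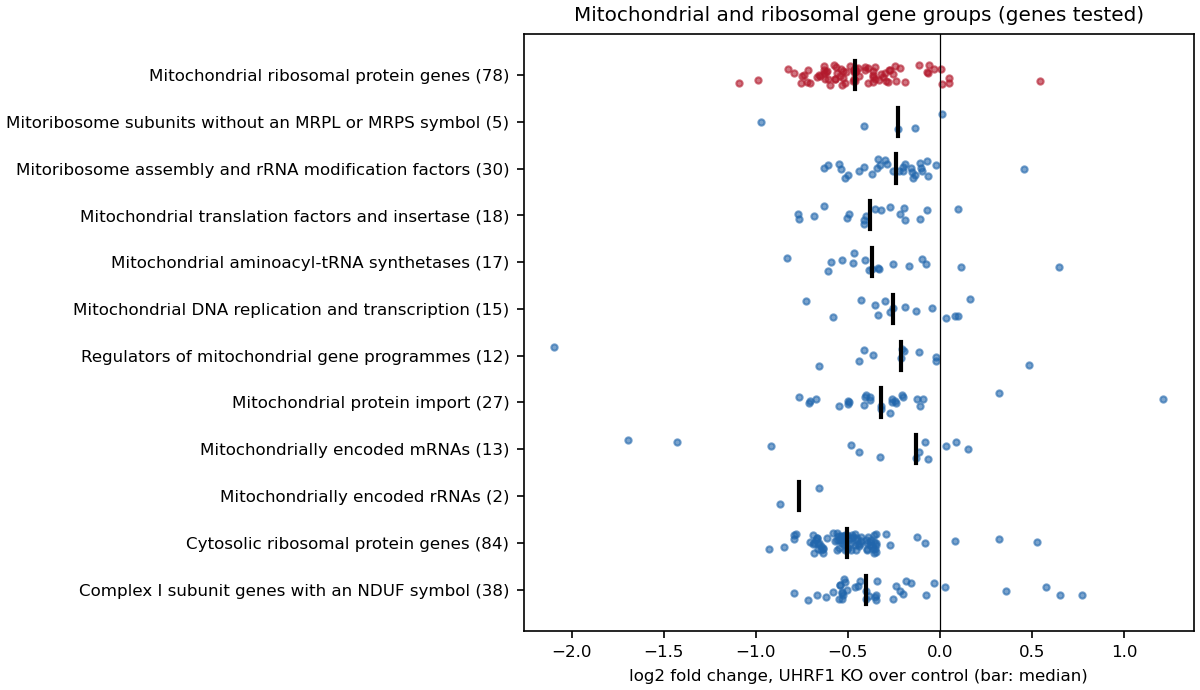
Log2 fold change of UHRF1 KO over control (x axis) for each tested gene of the mitoribosomal set (red) and of 11 related gene groups (blue), with the median as a black bar and the number tested in brackets. The bars of all groups lie left of 0, and the cytosolic ribosomal protein bar at -0.50 is close to the -0.46 of the mitoribosomal genes.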

How the data were processed

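Per the labels' protocols, Trizol-extracted RNA went into SMARTER mRNA-Seq libraries. The authors deposited read counts per gene, whole numbers that are not normalized; FastQC 0.10.1 and GRCh38 are named in the submitters' processing notes, while no source used here names the aligner, the counter or its use of strand. All 58735 gene identifiers matched GENCODE 29.

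Counts were tested in R 4.3.3 with edgeR 4.0.16 (filterByExpr, TMM, robust quasi-likelihood fit, two-sided), with Benjamini-Hochberg adjustment over all 17030 genes tested and a threshold of 0.05. The fit had a biological coefficient of variation of 3.16%, with 2 residual degrees of freedom moderated across genes. Each SE is approximate: the size of the log2 fold change divided by the root of F. TPM was computed here from union exon lengths. Members, gene lists and tests were chosen with earlier results of these data known. The genes named were UHRF1, the 8 members that fell most, every member not called or with a positive fold change, the 3 members of each class with the smallest adjusted p, the highest and lowest 3 per length, the MRPS18 genes, head-to-head partners called in opposite directions, MRPL23, up to 2 called genes per direction of each list, and a few regulators; other names were added after their values were seen. 1 gene that this rule names is not reported here. Library pairs differed by more than counting noise (chi-square of 2.65 per gene in control and 1.85 in UHRF1 KO cells) and were kept as 2 replicates each. Both control samples carry the same short name, so which control is number 1 rests on their titles. The main fit was tested on simulated counts in which few genes changed, with rises and falls balanced. In these data 10563 of 17030 genes were called, so that test does not cover the scaling used here. Alternatives were other scalings and filters, the replicate number as a block, DESeq2 1.42.0, limma-voom (limma 3.58.1), a minimum of 1.2-fold, an adjusted p under 0.01, GC and length trends removed with mgcv 1.9.3, with and without recentring, thinning to equal depth, and leaving out each library; leaving out members with same-strand exon overlaps was added after seeing the data.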

Additional observations from a re-analysis of the deposited data

How the results depend on the processing

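The number of members called lower was 67 with the other scalings, both filters, limma-voom, thinning and the replicate block, 61 with DESeq2, 51 with a minimum of 1.2-fold, 64 at an adjusted p under 0.01, 71 and 74 with GC and length trends removed without and with recentring, and 64 to 67 when a library was left out; 55 of 62 were lower without members that share exons on the same strand. It was 0 higher in all of these. 51 members were called lower in all settings and 69 were negative in all.

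The member median was -0.50 with no filter on low counts, -0.50 with GC and length trends removed, -0.86 with recentring as well, and -0.45 to -0.51 when a library was left out. With recentring 66 members were at least 1.5-fold lower. MRPL34 changed to -0.27 and, with recentring, -0.63, and MRPS12 to -0.26 and -0.61. With a minimum of 1.2-fold, the lower calls were 8 for small subunit proteins with a bacterial counterpart, 2 for subunits without an MRPL or MRPS symbol, 8 for assembly factors, 9 for translation factors, 4 for mitochondrial DNA genes, 3 for regulators and 13 for import genes, and the higher calls were 0 for assembly factors, mitochondrial mRNAs and cytosolic ribosomal proteins. With GC and length trends removed, the higher calls were 1 for subunits without an MRPL or MRPS symbol, 1 for translation factors, 2 for regulators, 1 for mitochondrial mRNAs, 2 for cytosolic ribosomal proteins and 2 for complex I. With recentring, 14 mitochondrial DNA genes were lower, 3 head-to-head neighbours were higher, and 0 were higher among assembly factors, synthetases, regulators, mitochondrial mRNAs, cytosolic ribosomal proteins and complex I. Higher calls were 1 for mitochondrial DNA genes with upper-quartile factors and with at least 1 CPM in 2 libraries, 1 for mitochondrial mRNAs with no filter, and 0 for cytosolic ribosomal proteins with DESeq2 and at an adjusted p under 0.01. When a library was left out, higher calls ran from 0 to 1 for assembly factors and for cytosolic ribosomal proteins, from 1 to 3 for mitochondrial mRNAs and from 1 to 2 for complex I. The 10 highest members per length shared 5 with the coding-length order, and the YY1 core was in 3 members with the upstream 250 bases alone. The causes of these moves were not tested.

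The replicate number did not pair the libraries: deviations of same-numbered libraries correlated at -0.0257. With the replicate number as a block 67 members were called lower, of 10266 genes called in either direction, against 10563 without it. Depth widens the errors of MRPS24, MRPL38 and MRPL53, with 7 to 68 counts a library, and 2 libraries a group limit every spread given here.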
